A study of Homo sapiens with 15 samples.

Results

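The receptors, ligand and adaptors through which TRAIL and FAS ligand start apoptosis were followed in MDA-MB-468 cells, a triple-negative breast cancer cell line with high EGFR, under inhibition of EGFR kinase activity, under a peptide against nuclear EGFR, and after mutation of the EGFR nuclear localization sequence (NLS). The set holds 10 genes of the 61552 gene IDs in the counts table, chosen by symbol as a pathway that natural killer (NK) cells use against tumor cells: the TRAIL receptors TNFRSF10A, TNFRSF10B, TNFRSF10C and TNFRSF10D, the TNF receptor TNFRSF1A, the receptor FAS, the ligand TNFSF10 (TRAIL), the adaptor FADD, the protease CASP8 and its inhibitor CFLAR. The rule used no measured value, but the members were chosen with earlier results of these data known. The study itself plotted TNFRSF10A and TNFRSF10D among genes it picked in these libraries, so those genes are not independent evidence of a direction. On GRCh38 the TRAIL receptors lie next to each other on chromosome 8 within 205 kb (23020133 to 23225102), CASP8 (201233443 to 201361836) and CFLAR (201116154 to 201176687) lie near each other on chromosome 2, TNFSF10 lies on chromosome 3 (172505508 to 172523475), FAS on chromosome 10 (88953813 to 89029605), FADD on chromosome 11 (70203296 to 70207390) and TNFRSF1A on chromosome 12 (6328757 to 6342114). Counts were summed over the exons of each gene.

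NK cells kill in part by presenting TRAIL and FAS ligand to death receptors on the target cell. Ligand binding to TNFRSF10A (DR4), TNFRSF10B (DR5) or FAS gathers FADD at the receptor tail, FADD recruits CASP8, and active CASP8 cleaves the executioner caspases, whereas CFLAR (cFLIP) competes with CASP8 for FADD. TNFRSF10C and TNFRSF10D bind TRAIL but lack a working death domain and are known as decoy receptors, and TNFRSF1A binds TNF and signals either to NF-kB survival genes or to the same protease.

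The data were polyA RNA-seq of 15 libraries, 3 in each of 5 groups. In the drug experiment, parental cells were serum starved and then given 10 ng/mL EGF alone (EGF), EGF with 10 µM cSNX1.3, a peptide that limits transport of EGFR to the nucleus, or EGF with 15 µM erlotinib, an EGFR kinase inhibitor, for 12 h. In the line experiment, endogenous EGFR was knocked down with an IPTG-inducible lentiviral shRNA, and a GFP-tagged EGFR that was either wildtype (shEGFR-WT) or mutated in its NLS (shEGFR-NLS) was transfected. Both lines were kept in IPTG and given EGF. The labels do not say whether replicates were separate cultures, so p-values measure the spread between these libraries, which may be technical, and the 2 experiments differ in the making of the cells as well as in treatment, which cannot be told apart. The shRNA and a tagged transgene are carried by both lines.

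Library totals ranged from 22915676 to 35900649 counts, and all levels below are counts per 1000000 counts of the library (CPM), scaled by TMM over the 15 libraries. EGFR, the targeted gene, averaged 4730 CPM ± 359 (SD, n = 3) with EGF, 6139 ± 371 with cSNX1.3, 4704 ± 246 with erlotinib, 1339 ± 168 in shEGFR-WT and 1726 ± 33.5 in shEGFR-NLS, where reads of the introduced EGFR and of the remaining endogenous EGFR are counted together. EGFR RNA was 1.29-fold higher in shEGFR-NLS than in shEGFR-WT (log2 fold change 0.37 ± 0.09 SE, edgeR adjusted p = 0.00367), and its part in the differences between the lines was not tested. The 5 epithelial markers (EPCAM, CDH1, KRT8, KRT18, KRT19) summed to 11930 to 15590 CPM with EGF, 13660 to 17770 with cSNX1.3, 7166 to 8526 with erlotinib, 15870 to 18290 in shEGFR-WT and 9570 to 11680 in shEGFR-NLS. These markers did not move alike: with erlotinib the keratins KRT8 and KRT18 fell (log2 fold changes -1.20 ± 0.13 SE and -1.14 ± 0.13, edgeR adjusted p = 2.45e-06 and 4.22e-06), CDH1 rose (0.47 ± 0.08, adjusted p = 0.000239), and EPCAM (-0.12 ± 0.10) and KRT19 (-0.32 ± 0.14) did not pass. The basal keratins KRT5, KRT14 and KRT17 all fell with erlotinib (-1.23 ± 0.14, -0.72 ± 0.12 and -1.49 ± 0.16, adjusted p = 5.26e-06, 0.000148 and 1.76e-06). In shEGFR-NLS against shEGFR-WT, KRT8, KRT18, KRT19, CDH1, KRT5 and KRT17 were lower (from -0.74 to -0.32, adjusted p up to 0.0154), and EPCAM and KRT14 did not pass. With cSNX1.3 KRT18 rose (0.57 ± 0.13) and KRT14 fell (-0.45 ± 0.12), and the other keratins, EPCAM and CDH1 did not pass. PGR had no count in any library, and ESR1 averaged 4.21 to 7.17 CPM by group. Of 8 leukocyte and NK markers, NCR1 and KLRD1 were at 0 in all 15 libraries and the 7 other than CD14 summed to at most 0.652 CPM. CD14 moved with the groups, at 16.1 CPM ± 2.53 with EGF, 10.9 ± 2.19 with cSNX1.3, 40.3 ± 2.06 with erlotinib, 29.6 ± 6.22 in shEGFR-WT and 39.5 ± 2.24 in shEGFR-NLS (n = 3 each), and the part of these marker shifts in the results was not tested. As these are bulk RNA samples, fewer cells expressing a gene and less RNA per cell cannot be told apart.

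FADD and TNFRSF1A were the most abundant members per length, and FAS and the decoy TNFRSF10C were the least. In the EGF libraries, divided by the length of all exons of the gene, FADD averaged 28.2 CPM per kilobase ± 2.98 (SD, n = 3) and TNFRSF1A 16.7 ± 1.07. The ligand TNFSF10 stood at 7.85 CPM per kilobase ± 0.773, beside its receptors TNFRSF10B (6.50 ± 0.664) and TNFRSF10A (4.86 ± 0.569). The order below these was CASP8 (3.80 ± 0.0776), TNFRSF10D (2.35 ± 0.102), CFLAR (2.02 ± 0.263) and FAS (0.0912 ± 0.0194). For FAS the length of all exons (29313 bases) is far longer than the canonical transcript (3696 bases). It is also longer for CASP8 (7237 against 2659), TNFRSF1A (4205 against 2171), TNFSF10 (3441 against 1876) and CFLAR (22478 against 14612), among others. The order moved with the length chosen. Per kilobase of the canonical transcript, TNFRSF1A was highest (32.3 ± 2.08), TNFSF10 stood at 14.4 ± 1.42 against 8.14 ± 0.832 for TNFRSF10B and 5.28 ± 0.619 for TNFRSF10A, CASP8 reached 10.3 ± 0.211, CFLAR 3.10 ± 0.405 and FAS 0.723 ± 0.153, still the lowest of the 9 tested genes. TNFRSF10C had between 0 and 13 counts per library and did not pass the filter on low counts in any fit, so it entered no test. The other 9 of the 10 genes passed.

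**Figure D1:**
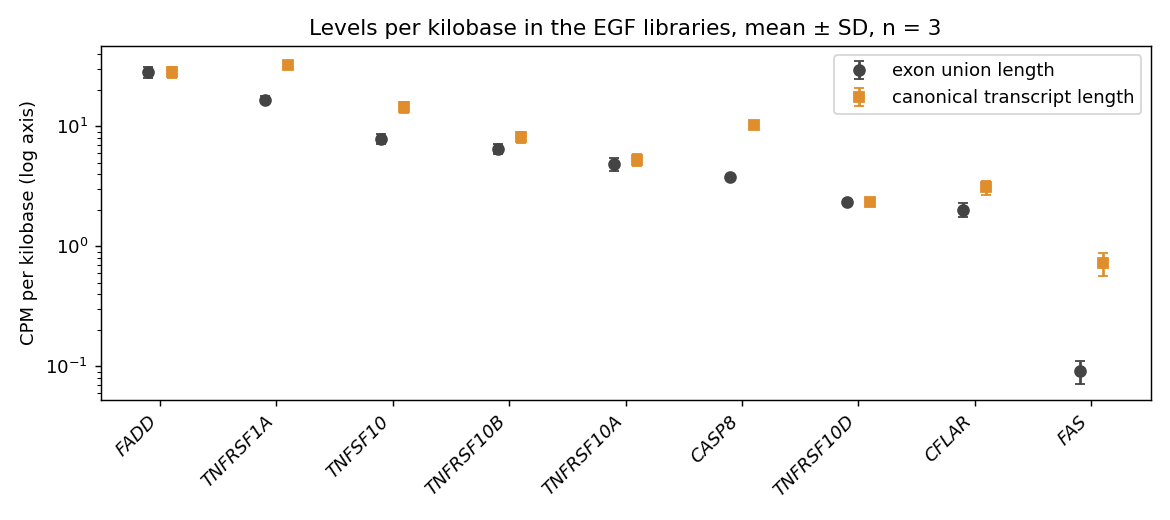
Mean CPM per kilobase in the 3 EGF libraries for the 9 genes that passed the filter, on a log axis, with error bars of 1 SD. Circles divide by the length of all exons and squares by the canonical transcript; FADD and TNFRSF1A lead on both lengths, FAS is lowest on both, and CASP8 rises from 3.80 to 10.3.

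Erlotinib lowered 3 of the 4 TRAIL receptors and raised the ligand, and the remaining receptor, TNFRSF10C, was too low to test. Of the 9 genes tested, 7 passed an adjusted p of 0.05 against EGF (2 higher, 5 lower), where 44.0% of the 15738 genes tested passed (22.8% higher, 21.2% lower). The median log2 fold change was -0.27 over the 9 genes against 0.01 over all genes tested, and the median size was 0.59 against 0.34. TNFRSF10A was 15.2, 12.3 and 15.2 CPM in the EGF libraries and 4.86, 5.15 and 4.30 with erlotinib. The groups did not overlap, and TNFRSF10A fell 2.96-fold (log2 fold change -1.57 ± 0.13 SE, edgeR quasi-likelihood test with Benjamini-Hochberg adjustment, adjusted p = 1.25e-07). TNFRSF10B, the other receptor with a death domain for TRAIL, was 33.4, 28.9 and 35.4 CPM with EGF and 17.7, 20.4 and 18.8 with erlotinib. Every erlotinib library was below every EGF library, a 1.71-fold fall (-0.77 ± 0.11, adjusted p = 3.68e-05). The decoy TNFRSF10D fell as well, from 8.66, 7.94 and 8.28 CPM to 3.26, 4.09 and 3.88, again without overlap (-1.14 ± 0.14, adjusted p = 7.11e-06). The 3 receptors are related in sequence, and reads that match more than one of them could have been split or dropped in counting. TNFRSF10B shares 377 exonic bases with RHOBTB2 on the opposite strand, which also fell with erlotinib (-1.01 ± 0.14, adjusted p = 2.37e-05), and the counting did not use strand. TNFRSF10A likewise shares 266 exonic bases with TNFRSF10A-DT and 224 with TNFRSF10A-AS1, both on the opposite strand. These 2 genes also fell with erlotinib (-0.45 ± 0.15, adjusted p = 0.0277, and -1.73 ± 0.41, adjusted p = 0.00312), TNFRSF10A-AS1 on 7 to 19 counts per erlotinib library.

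TNFSF10 moved the opposite way to TNFRSF10A, TNFRSF10B and TNFRSF10D. It was 29.7, 24.4 and 26.9 CPM with EGF and 61.8, 82.7 and 75.3 with erlotinib, a 2.73-fold rise without overlap (1.45 ± 0.11, adjusted p = 8.18e-08). FADD, the adaptor, was 45.3, 54.1 and 45.2 CPM with EGF and 36.1, 26.2 and 32.6 with erlotinib. The groups were separate, and FADD fell 1.51-fold (-0.59 ± 0.12, adjusted p = 0.000831). An antisense gene that shares 1011 of the 1708 exonic bases of FADD had no count in any library. The promoters of TNFSF10 and FADD are shown because these genes, outside the receptor cluster, have a single start in the RefSeq promoter table (GRCh38.p14) and moved in opposite directions. Each line gives 250 bases before to 50 bases after the start, 5′ to 3′ on the strand of the gene, and capitals mark matches to a motif searched on both strands. TNFSF10 lies on the minus strand at chr3:172523381-172523680 and FADD on the plus strand at chr11:70203046-70203345.
TNFSF10: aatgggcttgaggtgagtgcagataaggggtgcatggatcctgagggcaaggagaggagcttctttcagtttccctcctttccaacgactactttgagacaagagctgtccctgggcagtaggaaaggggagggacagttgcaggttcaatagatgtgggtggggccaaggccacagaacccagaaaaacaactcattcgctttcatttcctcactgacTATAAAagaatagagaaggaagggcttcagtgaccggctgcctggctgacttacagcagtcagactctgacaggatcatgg
FADD: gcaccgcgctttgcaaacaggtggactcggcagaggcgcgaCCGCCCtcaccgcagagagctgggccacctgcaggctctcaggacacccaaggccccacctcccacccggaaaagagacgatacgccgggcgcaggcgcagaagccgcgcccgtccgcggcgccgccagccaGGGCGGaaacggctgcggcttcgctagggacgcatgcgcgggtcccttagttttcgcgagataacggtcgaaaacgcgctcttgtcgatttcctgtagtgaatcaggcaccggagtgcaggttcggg
Of 35116 promoters of the same length in that table, 3.42% held the letters GTAAACA, a core that FOXO factors bind. The AP-1 site, spelled TGACTCA, was in 4.95% of promoters. The ETS core was searched as CCGGAAG and occurred in 10.3%. GC boxes, whose letters are GGGCGG, occurred in 45% of promoters. The TATA motif was searched as TATAAA and was in 11.5%. The TNFSF10 promoter held 1 TATA match at -31 to -26, and the FADD promoter held 2 GC boxes, at -209 to -204 and -77 to -72, with no motif overlapping another. The promoter of TNFRSF1A held none of the 5. A match describes these letters and is not a binding site.

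The other members changed less with erlotinib. TNFRSF1A was 70.0, 74.7 and 65.7 CPM with EGF and 86.0, 85.9 and 90.0 with erlotinib, 1.25-fold higher without overlap (0.33 ± 0.09, adjusted p = 0.00781). CASP8 was 28.1, 27.3 and 27.0 CPM with EGF and 20.6, 24.8 and 22.7 with erlotinib. Those groups were separate too, but the 1.21-fold fall sat close to the threshold (-0.27 ± 0.10, adjusted p = 0.0398) and lost the call in 5 of 6 fits that left out a library (adjusted p up to 0.132, without erlotinib replicate 1), holding it without erlotinib replicate 2. FAS had overlapping groups (-0.21 ± 0.20, adjusted p = 0.413, 95% interval -0.64 to 0.21). CFLAR averaged 45.3 CPM ± 5.92 with EGF and 45.2 ± 2.28 with erlotinib (n = 3 each), a difference of 0.00 with a 95% interval of -0.25 to 0.26 on the log2 scale.

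**Figure D2:**
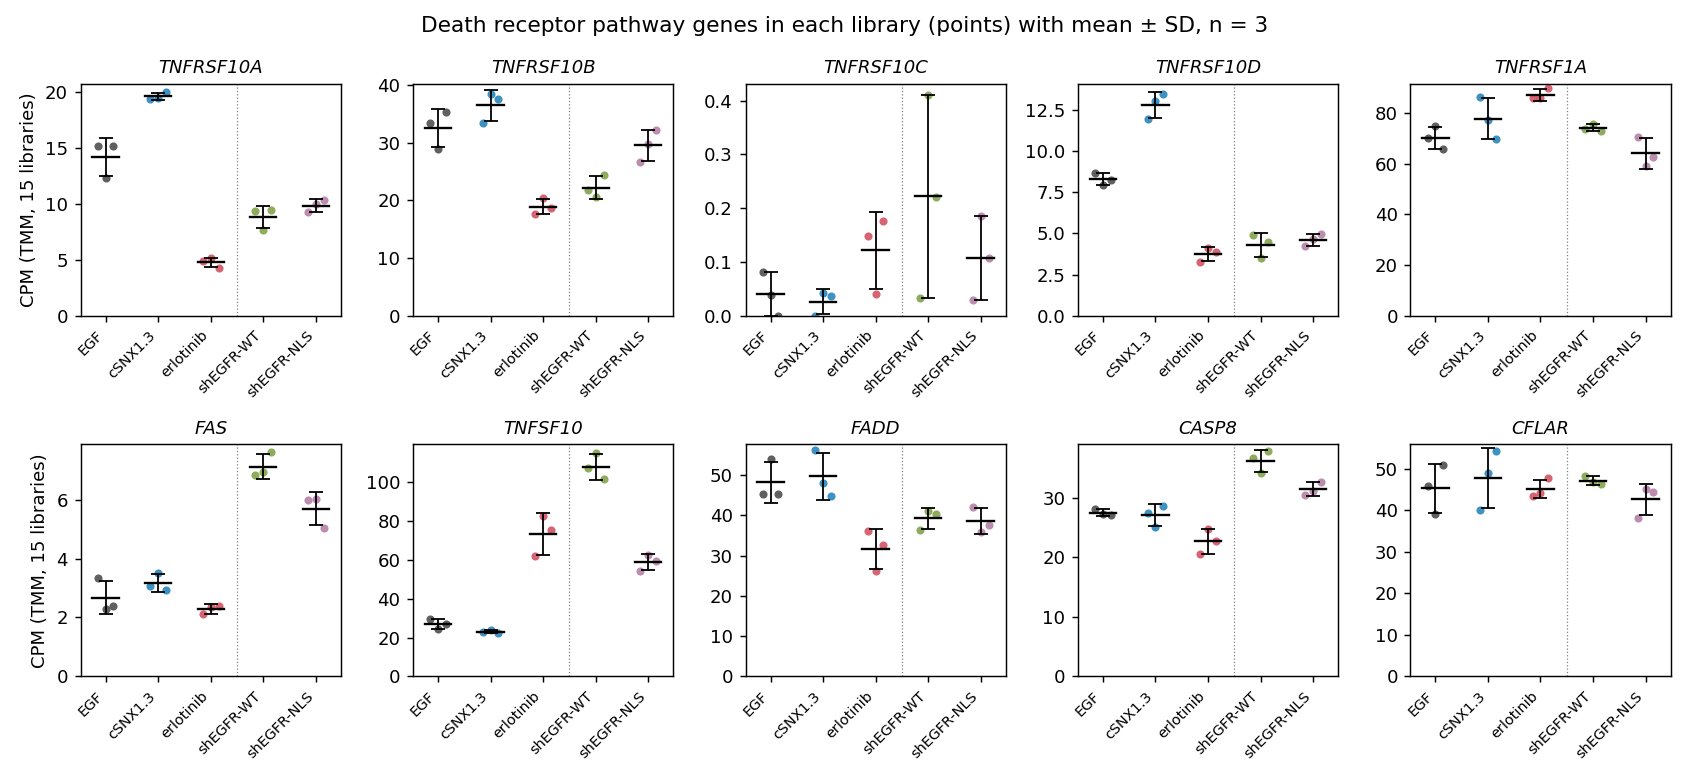
Level of each of the 10 genes in CPM (y axis, from 0) in every library, by group on the x axis, with a bar at the mean and error bars of 1 SD; the dotted line parts the drug and line experiments. TNFRSF10A, TNFRSF10B and TNFRSF10D are lowest with erlotinib, TNFSF10 is highest in shEGFR-WT (101 to 115 CPM), CFLAR is near level in all groups, and TNFRSF10C is near 0.

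cSNX1.3 raised a death receptor and a decoy for TRAIL and no other member passed the test. These were 2 of 9 genes, both higher, where 6.07% of the 15738 genes tested passed (3.38% higher, 2.69% lower), and the median log2 fold change was 0.15 over the 9 genes against 0.00 over all genes. TNFRSF10D was 11.95, 13.1 and 13.5 CPM with cSNX1.3, above every EGF library, a 1.55-fold rise (0.63 ± 0.13, adjusted p = 0.00614). TNFRSF10A was 19.4, 19.5 and 19.99 CPM, also above every EGF library and 1.38-fold higher (0.47 ± 0.12, adjusted p = 0.0262). That call was lost without EGF replicate 1, EGF replicate 2, cSNX1.3 replicate 2 or cSNX1.3 replicate 3 (adjusted p 0.0622, 0.111, 0.0998 and 0.0857), while the direction held in all of these. TNFRSF10B was 33.5, 38.5 and 37.5 CPM and overlapped the EGF libraries (0.17 ± 0.11, adjusted p = 0.431, 95% interval -0.06 to 0.40). TNFSF10 was 22.9, 23.7 and 22.4 CPM, below every EGF library, but did not pass (-0.23 ± 0.12, adjusted p = 0.301, 95% interval -0.48 to 0.02). For FADD, CASP8 and CFLAR the 95% intervals ran from -0.20 to 0.30, -0.23 to 0.19 and -0.17 to 0.34 on the log2 scale, for TNFRSF1A from -0.04 to 0.34 and for FAS from -0.17 to 0.67. The same EGF libraries served both drug comparisons. No library of the drug experiment received cPTD4, the control peptide that the study used in other assays. An effect particular to cSNX1.3 and an effect of adding a peptide therefore cannot be told apart here.

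Set directly against each other, the drugs differed in 6 of the 9 genes, where 56.1% of all genes tested passed (27.6% higher with cSNX1.3, 28.5% lower). With cSNX1.3 TNFRSF10A was 4.10-fold higher than with erlotinib (2.04 ± 0.13, adjusted p = 2.51e-09), TNFRSF10D 3.42-fold (1.78 ± 0.14, adjusted p = 2.31e-08) and TNFRSF10B 1.92-fold (0.94 ± 0.11, adjusted p = 2.61e-06). FADD was 1.56-fold higher (0.64 ± 0.12, adjusted p = 0.000281), and CASP8 was 1.19-fold higher with a call lost without cSNX1.3 replicate 1 or 3 or erlotinib replicate 1 or 3 (0.25 ± 0.10, adjusted p = 0.0457, and up to 0.156 in those fits). TNFSF10 was 3.20-fold lower with cSNX1.3 (-1.68 ± 0.12, adjusted p = 7.12e-09). All libraries of the drugs were separate for these 6 genes. The share of all genes tested whose libraries separate in this way was not counted in any comparison. FAS was separate as well and missed the threshold (0.46 ± 0.20, adjusted p = 0.0596). TNFRSF1A (-0.18 ± 0.09, adjusted p = 0.109) and CFLAR (0.08 ± 0.12, adjusted p = 0.5999) overlapped.

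Between the lines, the ligand TNFSF10 and the receptor TNFRSF10B differed in opposite directions, and both kept their calls under every alternative run. Of 9 genes tested, 5 passed in shEGFR-NLS against shEGFR-WT (1 higher, 4 lower), where 41.4% of the 15805 genes tested passed (20.4% higher, 21.0% lower). The median log2 fold change was -0.15 against 0.01 over all genes, and the median size was 0.20 against 0.26. TNFSF10 was 107, 115 and 101 CPM in shEGFR-WT and 54.3, 62.4 and 59.4 in shEGFR-NLS, 1.84-fold lower without overlap (-0.88 ± 0.08, adjusted p = 1.58e-07). TNFRSF10B was 21.8, 20.5 and 24.3 CPM in shEGFR-WT and 26.7, 29.7 and 32.2 in shEGFR-NLS. The lines were separate, and TNFRSF10B was 1.33-fold higher in shEGFR-NLS (0.41 ± 0.09, adjusted p = 0.00205). The receptors that cSNX1.3 raised did not pass here: TNFRSF10A was 9.39, 7.69 and 9.43 CPM against 9.25, 9.98 and 10.4 (0.16 ± 0.11, adjusted p = 0.288, 95% interval -0.08 to 0.40), and TNFRSF10D gave 0.10 ± 0.15 (adjusted p = 0.616, 95% interval -0.21 to 0.42).

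FAS, TNFRSF1A and CASP8 were lower in shEGFR-NLS by small amounts, and their calls were lost in most fits without a library. FAS was 6.84, 6.93 and 7.60 CPM in shEGFR-WT and 5.99, 6.04 and 5.05 in shEGFR-NLS (-0.32 ± 0.12, adjusted p = 0.0458). TNFRSF1A was 73.8, 75.7 and 73.1 CPM against 70.7, 58.9 and 62.7 (-0.21 ± 0.08, adjusted p = 0.0355), and CASP8 was 36.7, 34.1 and 37.8 against 30.4, 31.2 and 32.7 (-0.20 ± 0.08, adjusted p = 0.0412). The lines did not overlap for these genes, but the share of all genes tested that separate in this way was not counted. Leaving out 1 library at a time lost the call of FAS and of CASP8 in 5 of 6 fits each (adjusted p up to 0.198 and 0.148). That of TNFRSF1A was lost in 4 of 6 (up to 0.152). All 3 calls held without shEGFR-WT replicate 2, and that of TNFRSF1A also without shEGFR-NLS replicate 1. FADD was 39.2 CPM ± 2.58 in shEGFR-WT and 38.6 ± 3.26 in shEGFR-NLS (-0.02 ± 0.08, adjusted p = 0.838), and CFLAR 47.2 ± 0.987 and 42.7 ± 3.78 (-0.15 ± 0.08, adjusted p = 0.151).

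**Figure D3:**
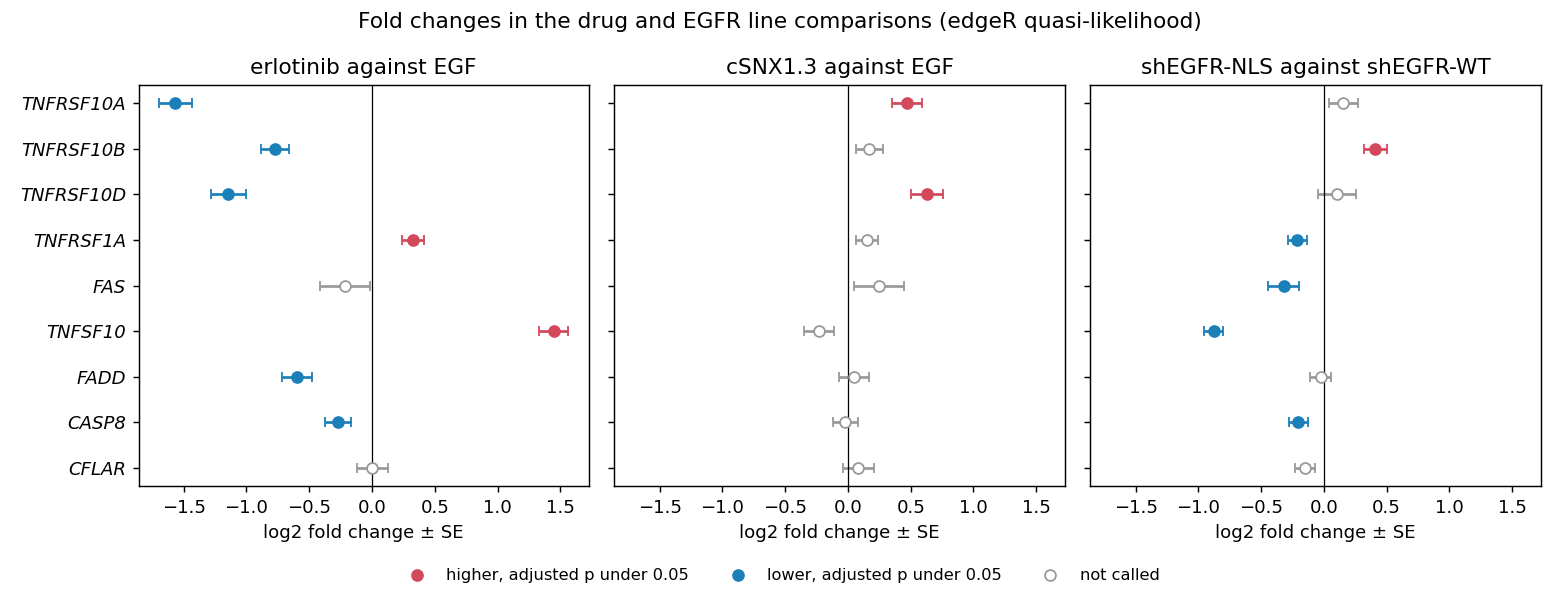
Log2 fold change with its SE (x axis) for the 9 genes tested (y axis) in erlotinib against EGF, cSNX1.3 against EGF and shEGFR-NLS against shEGFR-WT; filled points passed an adjusted p of 0.05 (red higher, blue lower) and open points did not. TNFSF10 is at 1.45, -0.23 and -0.88 in the panels from left to right, and TNFRSF10A at -1.57, 0.47 and 0.16.

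Mutation of the NLS and the peptide against nuclear EGFR were compared as the difference between their effects, in a fit of all 15 libraries. Of the 9 genes, 3 passed, all with a lower effect in the lines, where 23.1% of the 16524 genes tested passed (11.3% higher, 11.8% lower). TNFSF10 differed by -0.65 ± 0.14 on the log2 scale (adjusted p = 0.00192), with the call held in all 12 fits without a library. TNFRSF10D (-0.53 ± 0.19, adjusted p = 0.0477) and TNFRSF1A (-0.36 ± 0.12, adjusted p = 0.0360) lost theirs in 10 and 9 of those 12 fits, for example without shEGFR-WT replicate 1 (adjusted p = 0.145 and 0.0639). TNFRSF10D held its call without cSNX1.3 replicate 1 or shEGFR-WT replicate 2, and TNFRSF1A without EGF replicate 2, cSNX1.3 replicate 3 or shEGFR-NLS replicate 1. For TNFRSF10A and TNFRSF10B the differences were -0.31 (95% interval -0.64 to 0.02) and 0.24 (-0.05 to 0.54). Set against the effect of erlotinib, 6 of 9 genes differed, where 44.7% of all genes did (22.6% higher, 22.1% lower): TNFRSF10A by 1.73 ± 0.17, TNFRSF10D by 1.26 ± 0.20, TNFRSF10B by 1.19 ± 0.14 and FADD by 0.58 ± 0.16 towards higher values in the lines, and TNFSF10 by -2.32 ± 0.14 and TNFRSF1A by -0.53 ± 0.12 towards lower (adjusted p from 5.64e-11 to 0.00521).

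Across all 5 groups TNFSF10 and TNFRSF10A had the widest range among the 9 genes tested. TNFSF10 rose in the order cSNX1.3 (23.0 CPM ± 0.673), EGF (27.0 ± 2.66), shEGFR-NLS (58.7 ± 4.06), erlotinib (73.3 ± 10.6) and shEGFR-WT (108 ± 6.72), a 4.69-fold span in which the libraries of shEGFR-NLS and erlotinib overlapped and the other neighbours did not. TNFRSF10A ran from erlotinib (4.77 ± 0.433) through shEGFR-WT (8.83 ± 0.995), shEGFR-NLS (9.86 ± 0.559) and EGF (14.2 ± 1.67) to cSNX1.3 (19.6 ± 0.308), a 4.12-fold span in which the 2 lines overlapped. TNFRSF10D had a 3.43-fold span, with erlotinib, shEGFR-WT and shEGFR-NLS overlapping in turn below EGF and cSNX1.3. TNFRSF10B spanned 1.93-fold, and its shEGFR-NLS, EGF and cSNX1.3 libraries overlapped in turn. FAS was higher in both lines than in any drug library (5.69 CPM ± 0.558 in shEGFR-NLS and 7.13 ± 0.417 in shEGFR-WT against group means of 2.29 to 3.16), and CASP8 likewise (31.4 ± 1.16 and 36.2 ± 1.87 against group means of 22.7 to 27.5). FADD spanned 1.57-fold and TNFRSF1A 1.36-fold. CFLAR spanned only 1.12-fold with each group overlapping its neighbours.

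**Figure D4:**
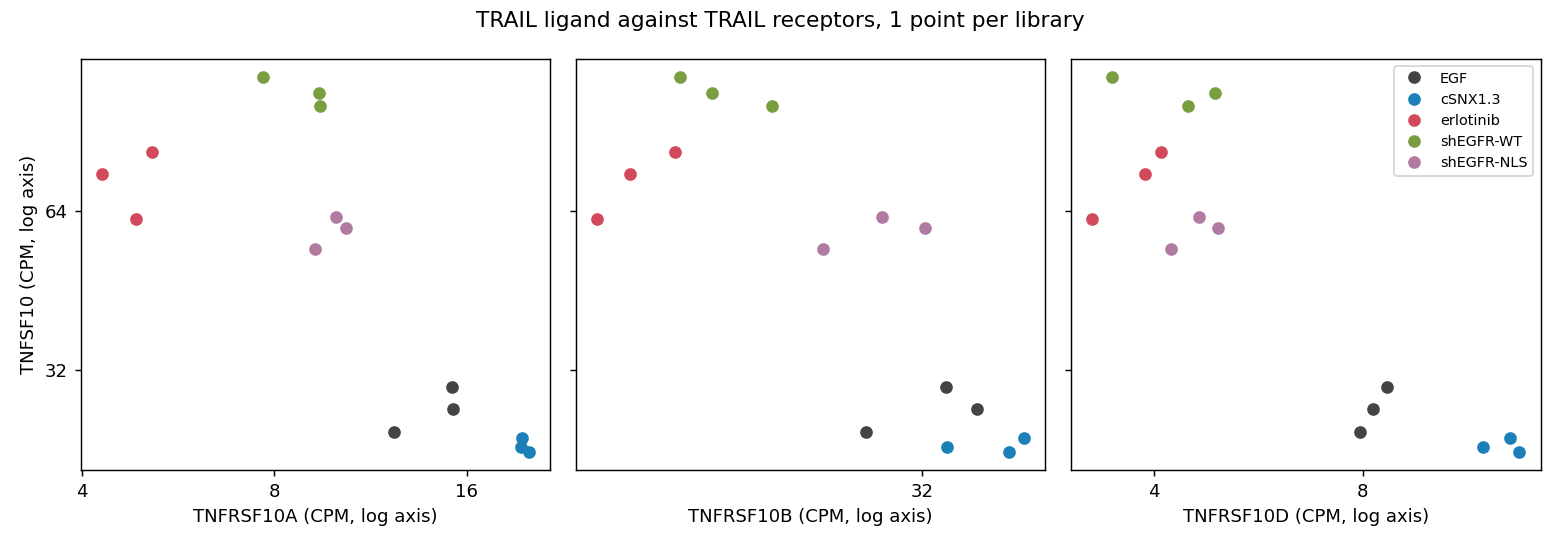
TNFSF10 (y axis) against TNFRSF10A, TNFRSF10B and TNFRSF10D (x axes), in CPM on log axes, with 1 point per library colored by group. The cSNX1.3 and EGF libraries hold the lowest ligand (22.4 to 29.7 CPM) and the highest TNFRSF10A and TNFRSF10D, the erlotinib libraries hold high ligand with the lowest TNFRSF10A, and the points cluster by group.

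The balance of decoys to death receptors for TRAIL was highest with cSNX1.3. The summed level of TNFRSF10C and TNFRSF10D over that of TNFRSF10A and TNFRSF10B, per kilobase, was 0.211, 0.228 and 0.191 with EGF, 0.254, 0.259 and 0.268 with cSNX1.3 and 0.196, 0.203 and 0.232 with erlotinib. All cSNX1.3 libraries exceeded all EGF and erlotinib libraries, which overlapped each other. In the lines the ratio was 0.186, 0.186 and 0.175 in shEGFR-WT and 0.143, 0.154 and 0.147 in shEGFR-NLS, without overlap. TNFRSF10C averaged 0.0169 CPM per kilobase with cSNX1.3 and 0.144 in shEGFR-WT, beside 3.63 and 1.21 for TNFRSF10D. The summed decoys are thus mostly TNFRSF10D, whose tests are given above. In shEGFR-WT replicate 2, however, TNFRSF10C stood at 0.266 CPM per kilobase on 13 counts, beside 0.984 for TNFRSF10D. The ratio of that library, and so the gap between the lines, rests in part on a gene too low to test. TNFRSF10D did not pass between the lines, whereas TNFRSF10B, in the denominator, was higher in shEGFR-NLS. Per canonical transcript the decoy ratio averaged 0.178 with EGF, 0.222 with cSNX1.3, 0.176 with erlotinib, 0.155 in shEGFR-WT and 0.125 in shEGFR-NLS. CFLAR over CASP8, the inhibitor against the protease, averaged 0.531 ± 0.0729 with EGF, 0.571 ± 0.0860 with cSNX1.3, 0.645 ± 0.0615 with erlotinib, 0.421 ± 0.0230 in shEGFR-WT and 0.437 ± 0.0301 in shEGFR-NLS (SD, n = 3 each). The 2 lines overlapped in this ratio, and both lay below the drug groups on average. The level of this ratio moved with the length chosen: per canonical transcript it averaged 0.300 with EGF, 0.323 with cSNX1.3, 0.365 with erlotinib, 0.238 in shEGFR-WT and 0.247 in shEGFR-NLS. These ratios are descriptions and were not tested.

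**Figure D5:**
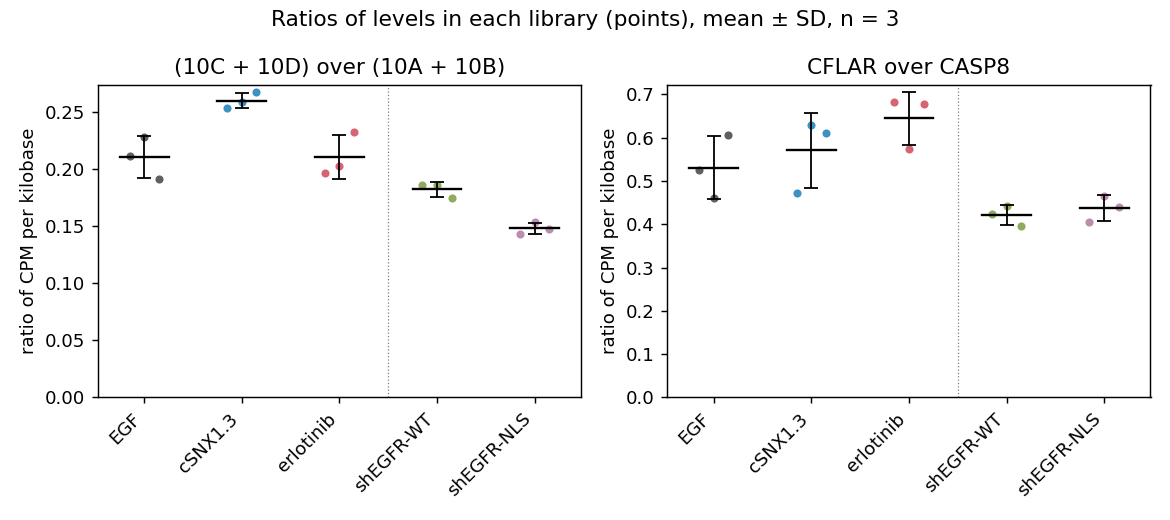
Ratios of CPM per kilobase (y axes, from 0) in every library by group, with the mean and error bars of 1 SD: decoy over death receptors for TRAIL on the left and CFLAR over CASP8 on the right. The left panel is highest with cSNX1.3 (mean 0.260) and lowest in shEGFR-NLS (mean 0.148).

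Other genes of the pathway were followed as a list of 38 receptors, ligands, complex members and downstream effectors. With erlotinib 17 of 30 tested genes passed (5 higher, 12 lower), with cSNX1.3 3 of 30 (1 higher, 2 lower) and between the lines 21 of 32 (8 higher, 13 lower), against the 44.0%, 6.07% and 41.4% of all genes above. Erlotinib lowered TNF, the ligand of TNFRSF1A, by 4.15-fold (-2.06 ± 0.47, adjusted p = 0.00240), on few reads (20 to 31 counts per EGF library and 2 to 11 per erlotinib library). It also lowered TNFAIP3 (-1.46 ± 0.15, adjusted p = 1.29e-06) and BIRC3 (-1.44 ± 0.10, adjusted p = 1.91e-08), which restrain death signaling at the TNF receptor and are known NF-kB targets. It raised EDAR, a receptor of the same family (1.92 ± 0.23, adjusted p = 6.16e-06), DIABLO, a mitochondrial antagonist of the IAP proteins (0.90 ± 0.24, adjusted p = 0.00566), and CYLD, a deubiquitinase of the receptor complex (0.76 ± 0.10, adjusted p = 2.22e-05). EDAR had 25 to 40 counts per EGF library and 135 to 153 per erlotinib library, and DIABLO 35 to 46 and 59 to 126. cSNX1.3 raised MLKL, the effector of necroptosis (0.64 ± 0.09, adjusted p = 0.000522), and lowered EDAR (-1.65 ± 0.31, adjusted p = 0.00384, on 6 to 14 counts per cSNX1.3 library) and the CASP8 relative CASP10 (-0.38 ± 0.11, adjusted p = 0.0407). In shEGFR-NLS, NGFR (1.31 ± 0.35, adjusted p = 0.00647), the death receptor TNFRSF25 (1.28 ± 0.39, adjusted p = 0.0160) and DIABLO (0.82 ± 0.22, adjusted p = 0.00649) were higher, the first from 6 to 15 counts per library to 25 to 34 and TNFRSF25 from 4 to 14 to 16 to 29. DIABLO had 41 to 47 counts per shEGFR-WT library and 62 to 95 per shEGFR-NLS library. TNFRSF11B, the secreted receptor osteoprotegerin that also binds TRAIL, was lower (-1.82 ± 0.28, adjusted p = 8.68e-05), as were EDAR (-1.34 ± 0.20, adjusted p = 5.98e-05) and TNFRSF21 (-0.96 ± 0.06, adjusted p = 8.48e-09). TNFRSF11B had 47 to 68 counts per shEGFR-WT library and 11 to 20 per shEGFR-NLS library.

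Genes whose level followed a member most closely were ranked by Pearson r of log2 CPM over the 15 libraries, a description in which the 5 groups set most of the spread. TNFSF10 was followed by SAMD9L (r = 0.992), EHF (0.987) and FGD3 (0.983). SAMD9L rose with erlotinib (1.77, adjusted p = 9.71e-07) and was lower in shEGFR-NLS (-1.08, adjusted p = 9.58e-07). TNFRSF10A was followed by SPRY2 (r = 0.986), an inducible inhibitor of growth factor signaling, NSUN2 (0.985) and STK10 (0.983), and SPRY2 fell with erlotinib by 1.58 on the log2 scale (adjusted p = 7.33e-08). TNFRSF10B was followed by PNN (r = 0.981), DDX46 (0.980) and SRSF11 (0.970), which are RNA splicing genes, and FAS by APLP2 (0.968), AOX1 (0.959) and S100A7 (0.955). The ranking moved with the setting. On the means of the 5 groups the genes closest to TNFRSF10A were DRAP1, MAP4 and RBM26. Those closest to TNFRSF10B and FAS also all changed, and for TNFSF10 only SAMD9L stayed. With a smaller constant added before taking logs, MIR4500HG took the place of S100A7 for FAS.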

How the data were processed

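MDA-MB-468 RNA-seq libraries, 3 per group, were grouped by the sample labels, and doses come from the study's methods; the EGF dose of the lines is not given in the sources used here. The deposited values are raw counts: the authors trimmed reads with TrimGalore, aligned them to GRCh38 with STAR and counted read pairs per gene with featureCounts without strand. The annotation release is not given in the sources used here. Of 61552 gene IDs, 61399 matched GENCODE 44.

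Counts were analysed with edgeR 4.0.16 (R 4.3.3): TMM scaling, filterByExpr by group, robust quasi-likelihood tests and Benjamini-Hochberg adjustment over all genes tested, with a threshold of 0.05. The 9 drug libraries, the 6 line libraries and all 15 libraries (differences between effects) were fitted separately, and the test was checked on simulated counts. SEs come from the F statistic. Library totals were 22915676 to 35900649; intervals cover the spread between libraries. Chi-square tests of counts between libraries of the same group found none deposited more than once within a group (2.60 to 22.3 per degree of freedom). Libraries of different groups were not compared in this way. Named genes are the 10 members, EGFR and the cell type markers. Also named are the 3 largest rises and falls per comparison among called genes of the 38-gene list. So are the 3 genes most alike to TNFRSF10A, TNFRSF10B, FAS and TNFSF10. Some genes that share exonic bases with a member or lie near the receptor cluster were named too, picked after the values were seen. Members, lists and tests were chosen with earlier results of these data known. Alternatives were other scaling, filters, fits, DESeq2 1.42.0, a replicate block, gene lengths and leaving out libraries. The length of the canonical transcript was added after seeing the data. A result for 1 gene is not reported here.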

Additional observations from a re-analysis of the deposited data

How the results depend on the processing

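Under alternative scaling, filters, fits and DESeq2, and without single libraries, TNFRSF10A, TNFRSF10B, TNFRSF10D, FADD, TNFRSF1A and TNFSF10 kept their calls with erlotinib, and TNFRSF10D kept its call with cSNX1.3. For genes called in the comparison of cSNX1.3 with EGF, an adjusted p under 0.01 left 1 of 2, and leaving out 1 library left 1 to 2. Between the lines, 5 genes became 2 at an adjusted p under 0.01, 3 without a filter on low counts, 3 with DESeq2, 2 in the fit of all 15 libraries and 2 to 5 without a library. For the difference between the effects in the lines and with cSNX1.3, 3 became 1 at an adjusted p under 0.01, 1 without a filter and 1 to 2 without a library. The cause was not tested, other than that the fits without a library hold fewer samples.

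Replicate numbers did not pair the libraries: same-numbered libraries of 2 groups had deviations correlated at -0.20 to 0.25. With a replicate block, 2 genes passed between the lines and 1 in the difference of effects from cSNX1.3, while the count with cSNX1.3 stayed at 2 and CASP8 lost its calls with erlotinib (adjusted p = 0.0617) and between the drugs (0.0707).

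Members that changed sign were small and not called. CFLAR with erlotinib (0.0034) became -0.0048 with DESeq2 size factors, -0.0047 with DESeq2, -0.0050 in the fit of all 15 libraries and -0.013 without a filter, and ranged from -0.11 to 0.098 without a library. Without a library the log2 differences with cSNX1.3 ranged for CFLAR from -0.023 to 0.20, for FADD from -0.046 to 0.12 and for CASP8 from -0.068 to 0.021. CFLAR between the drugs ranged from -0.021 to 0.20. Between the lines TNFRSF10D ranged from -0.022 to 0.20 and FADD from -0.091 to 0.027. In the difference from the erlotinib effect FAS ranged from -0.28 to 0.014 and CASP8 from -0.0065 to 0.14, and FADD ranged from -0.14 to 0.031 in the difference from the cSNX1.3 effect.

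With the canonical transcript length, levels per kilobase with EGF moved from 0.0912 to 0.723 for FAS, from 3.80 to 10.3 for CASP8, from 16.7 to 32.3 for TNFRSF1A, from 7.85 to 14.4 for TNFSF10 and from 2.02 to 3.10 for CFLAR, and CFLAR over CASP8 moved from 0.531 to 0.300. Decoy over death receptors with EGF moved from 0.210 to 0.178. TNFRSF10C, at 0 to 13 counts per library, was too low to test, and FAS had the widest intervals among the 9 genes tested with each drug.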

Other observations

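The genes around the TRAIL receptors were also read, a list made by position after the values were seen. Of 18 other genes tested within 500 kb of the receptor cluster, 11 were lower with erlotinib, where 21.2% of all genes tested were. With cSNX1.3 2 were higher, against 3.38% of all genes. In shEGFR-NLS against shEGFR-WT 3 were higher and 2 lower, where 20.4% of all genes tested were higher and 21.0% lower (edgeR adjusted p under 0.05 throughout). The largest fall with erlotinib was that of EGR3, an immediate early transcription factor induced by growth factors (log2 fold change -2.20 ± 0.47 SE, adjusted p = 0.00145). LOXL2, a secreted enzyme that crosslinks collagen, fell as well (-0.54 ± 0.10, adjusted p = 0.000302). With cSNX1.3 the 2 that rose were PDLIM2 (0.63 ± 0.15, adjusted p = 0.0149) and SLC25A37, a mitochondrial iron importer (0.47 ± 0.13, adjusted p = 0.0384). STAMBPL1, which shares 166 exonic bases with FAS, fell with erlotinib (-0.91 ± 0.11, adjusted p = 8.30e-06) and rose with cSNX1.3 (0.56 ± 0.11, adjusted p = 0.00429), while FAS passed in neither comparison.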
